A study of Mus musculus with 19 samples.

Results

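Ifngr1, Tyk2, Stat2 and Irf2 are 4 genes of interferon signalling, and they were examined here in A223, a mouse squamous cell carcinoma line. They were taken from the deposited variant table of the line by gene name, as 4 of the 18200 genes that have at least 1 call in it. The genes were selected on their exome and RNA genotypes, having been chosen by the protein-changing calls of A223, so the number and zygosity of those changes describe the choice and are not findings. The same holds for RNA agreement and RNA depth at the calls of these genes. The series sorted T cells from A223 tumours and spleens for single-cell sequencing, and it also sequenced the tumour line itself, which is the material described here. The A223 cells carry the strain label C57BL/6 and were grown in vitro. They were read in 1 exome DNA library and 1 RNA library, so there were no replicates and no test between groups was possible. Normal DNA of the line's animal of origin was not analysed here, so inherited variants and variants acquired by the tumour cannot be told apart. A homozygous call and the loss of the other copy cannot be told apart either, because the table lists a genotype and no exome read counts.

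Interferons switch on antiviral and antigen presentation genes, among them the MHC class I genes through which T cells recognise tumour cells. Interferon gamma binds a receptor made of IFNGR1 and IFNGR2, which works through the kinases JAK1 and JAK2. Type I interferons bind IFNAR1 and IFNAR2, whose kinases TYK2 and JAK1 phosphorylate STAT2. STAT2 then acts with IRF9 on interferon response elements, and IRF2 binds related sites, where it can compete with the activator IRF1.

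The table lists 564674 calls of a difference between A223 and the reference genome, of which 209790 were made in the exome and 354884, or 62.8%, in the RNA alone. The 4 genes hold 117 of these calls. Of them 20 were called in exome and RNA, 14 in the exome alone and 83 in the RNA alone. Among the 34 exome calls, 23 were homozygous and 11 heterozygous, and 59.8% of all exome calls in the table were homozygous. Of the 34, 15 were coding, and 37.2% of all coding exome calls in the table were homozygous. The RNA depth of the table is the number of RNA reads at a position, with a median of 0 reads over the 21507 coding exome calls and 25 reads at the 75th percentile. Of those coding calls 51.9% had 0 reads, whereas the 15 coding exome calls of the 4 genes had between 11 and 90 reads. The identity of the line could be checked only loosely, since the table shows reads at variant positions and not expression. Of 7 epithelial marker genes Krt5, Krt14, Trp63 and Epcam had no call, and Cdh1 had 0 RNA reads at all 15 of its exonic calls. Krt8 reached 56 reads and Krt18 74 reads, at calls outside their exons. Of the haematopoietic markers Cd3e and Ptprc had 0 reads at every call, and Lyz2 had no call.

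Several calls are easiest to follow as sequence, and those the results turn on are given here 5′ to 3′ on the strand of the gene. In Tyk2 and Stat2 the RNA library gave deletions that run from the first to the last base of an intron, and 3 of them are shown with the 2 bases at each end in capitals. Positions are in GRCm38.p6, the build whose bases match the table at all 3044 substitutions that could be compared. The Stat2 intron is placed 2 bases higher than the listed deletion, which spans 128277732 to 128277819.
Tyk2 intron 22, chr9:21105184-21105263, minus strand: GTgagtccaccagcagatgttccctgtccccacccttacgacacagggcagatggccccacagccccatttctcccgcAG
Tyk2 intron 14, chr9:21111161-21111244, minus strand: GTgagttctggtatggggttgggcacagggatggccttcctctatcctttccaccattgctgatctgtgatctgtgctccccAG
Stat2 intron 5, chr10:128277734-128277821, plus strand: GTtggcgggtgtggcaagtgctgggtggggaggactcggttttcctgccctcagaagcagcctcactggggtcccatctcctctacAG
Each begins with GT and ends with AG, the usual ends of a spliced intron. The longest insertions that the RNA showed at exon ends of Ifngr1 and Stat2 follow in lower case throughout.
Ifngr1, 44 bases inserted at the start of intron 2: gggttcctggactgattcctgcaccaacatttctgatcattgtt
Stat2, 67 bases inserted at the end of exon 10: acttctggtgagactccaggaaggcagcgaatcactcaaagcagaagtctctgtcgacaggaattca
Of the 4 promoter windows that RefSeq gives in GRCm38.p6, the one of Ifngr1 holds 1 call and those of Tyk2, Stat2 and Irf2 hold 0. The called base of the Ifngr1 window, where A223 has C in place of T, is the capital letter.
Ifngr1 promoter, chr10:19591699-19591998, plus strand: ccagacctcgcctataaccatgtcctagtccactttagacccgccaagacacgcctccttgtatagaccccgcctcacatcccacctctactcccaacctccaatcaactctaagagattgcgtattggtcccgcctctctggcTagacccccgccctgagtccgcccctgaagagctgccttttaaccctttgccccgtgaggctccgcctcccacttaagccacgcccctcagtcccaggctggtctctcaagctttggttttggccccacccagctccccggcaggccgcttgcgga

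Ifngr1 encodes the chain that binds interferon gamma, and it was the mainly heterozygous gene of the 4. It lies at chr10:19591949-19610229 on the plus strand and had 19 calls. Of its 11 exome calls 10 were heterozygous and 1 was homozygous, a homozygous share of 9.09%, with an exact 95% interval of 0.230% to 41.3%. The protein-changing call was E95G, which exchanges the glutamate at residue 95 of 477 for glycine in exon 3 of 7. It was heterozygous in exome and RNA, with 90 RNA reads, more than at 91.6% of all coding exome calls. The silent T30T in exon 1 was likewise heterozygous in exome and RNA, with 65 reads. Adjacent substitutions in the 5′ UTR at 19592037 and 19592038 had 15 and 17 reads, and a pair of intron 2 calls had 8 reads each, all of them heterozygous in exome and RNA. Both alleles were thus called in the RNA at all 6 positions where Ifngr1 was called in exome and RNA.

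The other calls of Ifngr1 lay outside its coding sequence. The promoter substitution at chr10:19591843, base 145 of the window printed above, was the single homozygous exome call of the gene and had 0 RNA reads. Another 4 exome calls, all heterozygous with 4 to 9 RNA reads, had no RNA call. The table names these 4 as upstream of a shorter transcript, although they lie inside the gene. The RNA alone gave 8 calls, all heterozygous. Among these a 3′ UTR insertion at 19609999 had 91 reads, the 44-base insertion printed above had 46 reads, and the remaining 6 had 7 to 11 reads.

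Tyk2 encodes a kinase bound to IFNAR1, and all 8 of its exome calls were homozygous, a share of 100% with an exact 95% interval of 63.1% to 100%. The gene lies at chr9:21104068-21131393 on the minus strand and had 32 calls. There were 3 missense changes in its protein of 1207 residues, all homozygous in exome and RNA. H261R in exon 5 had 40 RNA reads, K382E in exon 6 had 38 and F516L in exon 9 had 38, so each had more reads than at least 80.5% of coding exome calls. All 3 lie in the part of TYK2 before its kinase domain, which forms the end of the protein. The silent L255L had 33 reads and Y455Y had 25, both homozygous in exome and RNA. The silent C428C was homozygous in the exome but heterozygous in the RNA, with 14 reads, and it was 1 of 2 exome calls of the 4 genes whose genotype differed between the libraries. At homozygous coding substitutions with 10 to 19 reads over the whole table, 1.66% were heterozygous in RNA.

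**Figure D1:**
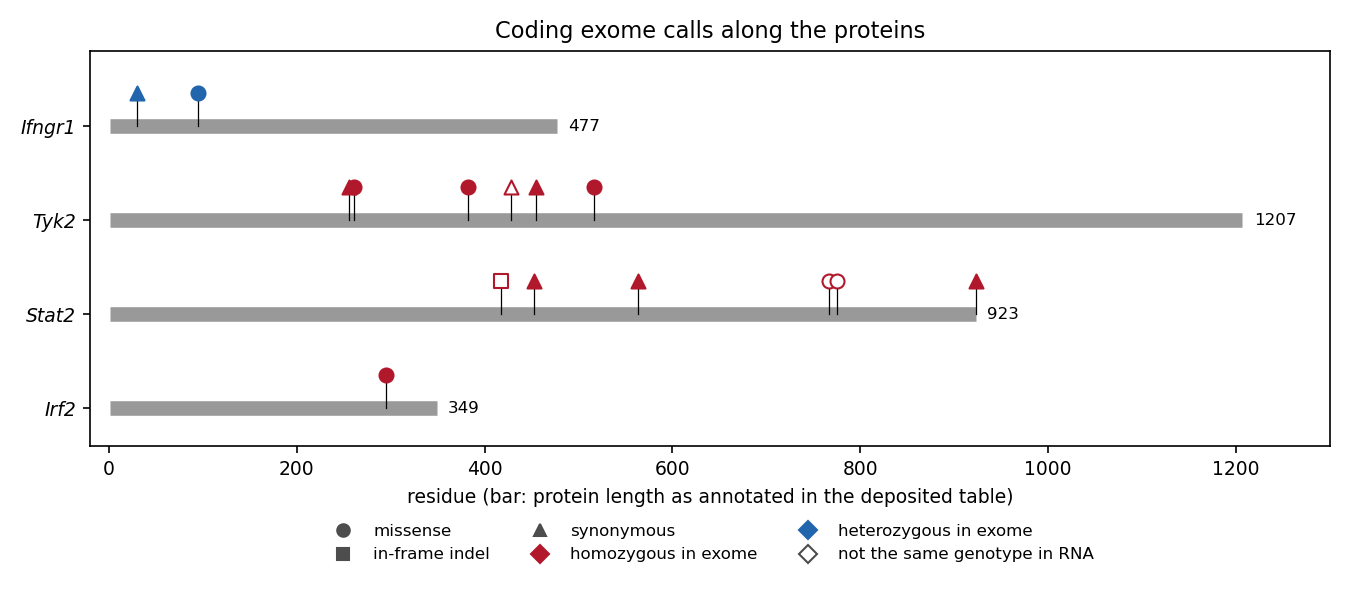
Coding exome calls along the 4 proteins, with residue number on the horizontal axis and a bar for the annotated protein length of 477, 1207, 923 and 349 residues. Circles are missense, triangles silent and squares in-frame changes, red is homozygous and blue heterozygous in the exome, and open symbols had another or no genotype in RNA; the 3 open symbols that change the protein are all in Stat2.

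Stat2 encodes the partner of IRF9 in the type I interferon response. It lies at chr10:128270498-128292853 on the plus strand, 108.7 Mb from Ifngr1 on the same chromosome, and had 39 calls. Of its 13 exome calls 12 were homozygous, 92.3%, with an exact 95% interval of 64.0% to 99.8%. The remaining one, an intron 7 deletion at 128278576, was heterozygous with 0 RNA reads. Its coding calls did not match the RNA as uniformly as those of Tyk2. The exome called 3 homozygous protein changes, p.Asn416dup, L767Q and P775L, in a protein of 923 residues, and the RNA gave no variant call at any of them. p.Asn416dup, a repeated asparagine in exon 14 of 24, had 48 RNA reads. L767Q and P775L, both in exon 23 and 24 bases apart, had 16 and 11 reads. In the same gene the silent V452V with 17 reads, the silent V563V with 13 reads and a change within the stop codon with 41 reads were homozygous in exome and RNA.

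The RNA also gave Stat2 calls that the exome lacked. There were 6 homozygous calls in the 3′ UTR, with 18, 19, 25, 76, 79 and 82 reads, and a homozygous 5′ UTR call at 128270599, with 37 reads, that the table marks as creating an upstream start codon. A further 10 homozygous RNA calls in introns had 2 to 7 reads. The stop codon change, downstream of the 3 protein changes, was called in both libraries. The 3′ UTR calls are listed only because the RNA gave them, so they cannot show whether RNA calls were missing there. Over the whole table, homozygous coding substitutions had no RNA call in 9.64% of 664 cases with 10 to 19 reads, and in 4.8% of 2083 cases with 20 or more. Homozygous coding insertions and deletions with 20 or more reads were rare, and 2 of 25, or 8%, had no RNA call, 1 of them being p.Asn416dup. The table does not say whether a missing RNA call means a reference genotype or a position that was not genotyped.

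Irf2 encodes a factor that can compete with IRF1, and it had the fewest exome calls. It lies at chr8:46739745-46847458 on the plus strand and had 27 calls, of which 2 were called in the exome. Both were homozygous, a share of 100% with an exact 95% interval of 15.8% to 100%. D295E, in the last of 9 exons of a protein of 349 residues, was homozygous in exome and RNA with 77 reads. An intron 8 deletion at 46844878 was homozygous in the exome and heterozygous in the RNA, with 7 reads. A splice donor call at 46844869 and a splice region call at 46844870, on the adjacent base, were heterozygous in the RNA alone with 8 reads each. The RNA alone also gave 20 intron calls, of which 12 were insertions or deletions and 15 were heterozygous. Among the substitutions, 6 fell within 18 bases, from 46804940 to 46804957, each heterozygous with 10 reads; whether they rest on the same reads was not tested.

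Agreement between the libraries was summarised at exome calls with at least 20 RNA reads. At 10 such calls the 4 genes had the same genotype in RNA in 9, or 90%, and no RNA call in 1, p.Asn416dup. Over all genes the same genotype was found at 63.7% of 14310 exome calls, and 26.3% had no RNA call. With at least 10 reads, 14 of 18 exome calls of the 4 genes matched, 77.8%, against 66.3% of 23930 over all genes. For coding substitutions with 20 or more reads, 94.5% of 2083 homozygous calls were homozygous in RNA, and 70.8% of 3861 heterozygous calls were heterozygous in RNA. The heterozygous calls E95G and T30T of Ifngr1 fall in the more common of these outcomes. All 10 calls of the 4 genes are coding, whereas the 14310 include non-coding calls, so the 2 shares cover unlike sets. With 10 calls from 4 genes, of which those of a gene share its RNA level, the difference between 90% and 63.7% carries no test. As the genes were selected on RNA genotypes too, their 90% and 77.8% describe the choice and are not findings.

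**Figure D2:**
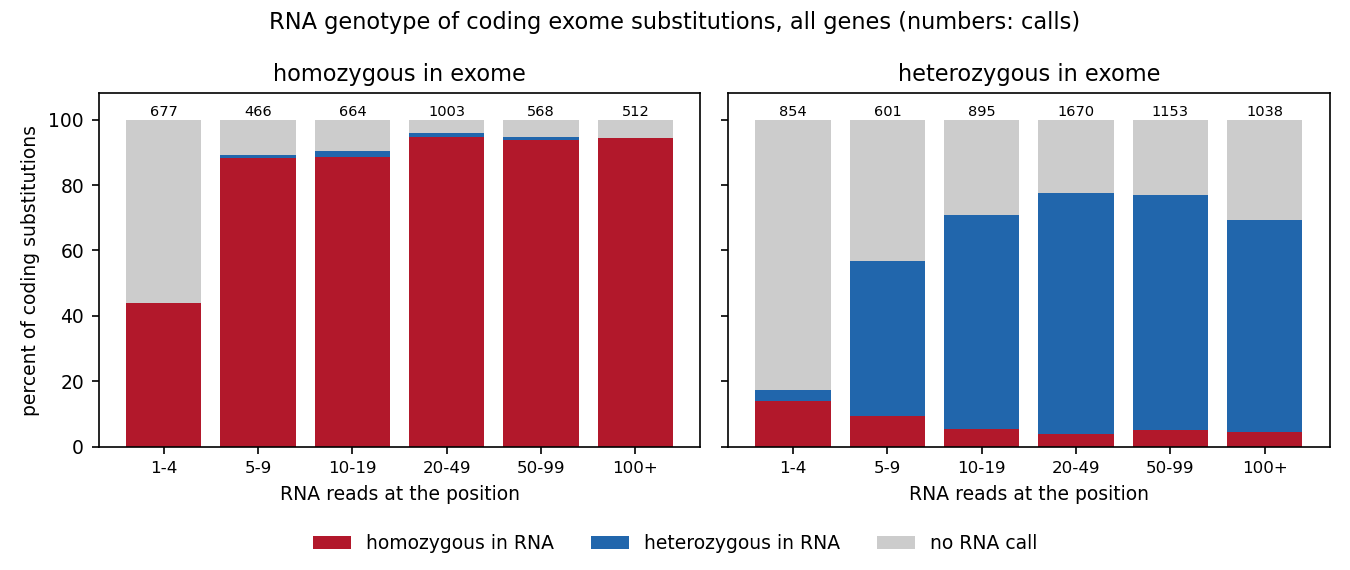
Percent of coding exome substitutions of all genes that were homozygous, heterozygous or not called in RNA, by the number of RNA reads at the position, for calls homozygous (left) and heterozygous (right) in the exome; numbers above the bars count calls. At 10 to 19 reads, the range of L767Q and P775L, 9.64% of 664 homozygous calls had no RNA call.

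Calls at exon boundaries made up 24 of the 83 calls seen in RNA alone, and all 24 were heterozygous. Over all genes 23725 of 354884 calls in RNA alone lay at exon boundaries, and 68.8% of the 23725 were heterozygous. There were 13 in Tyk2 with 8 to 54 reads, 7 in Stat2 with 6 to 32 reads, 2 in Ifngr1 with 46 and 8 reads and 2 in Irf2 with 8 reads each. In Tyk2 they comprised 6 insertions, 6 deletions of a whole intron and 1 substitution, and in Stat2 4 insertions and 3 deletions of a whole intron. The 9 whole-intron deletions spanned 80 to 118 bases and had 14 to 54 reads, with a median of 27. Of the 22 introns of Tyk2, those numbered 6, 10, 11, 14 and 22 were among the deleted ones, with 18, 27, 14, 30 and 32 reads. Stat2 lacked introns 5, 16 and 18 of its 23, with 32, 17 and 17 reads. None was called in the exome, and 99.8% of the 3270 such deletions of all genes were called in RNA alone. All 9 were heterozygous, against 65.8% of those seen in RNA alone over all genes. For 8 of the 9 the deposited name runs from the first to the last intron base, and all 8 start with GT and end with AG, as in the sequences printed above. The 3 introns of Stat2 were placed 2 bases higher than the listed deletions, so their GT and AG ends depend on that placement. For introns 16 and 18 of Stat2 no deposited sequence was given to compare. Whether these calls come from reads of spliced transcripts was not tested, and the same holds for the insertions at exon ends.

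Of the calls of Tyk2 in RNA alone, the table names 2 as frameshifts. p.Ala674fs, with 14 reads, is the deletion of intron 11 written 1 base further along, and p.Asn703fs, with 13 reads, is a duplicated base beside the boundary of exon 13. Neither was called in the exome. Calls in RNA alone away from exon boundaries had the zygosity of most exome calls of the gene in 3 of the genes. All 11 of Tyk2 and all 19 of Stat2 were homozygous, and all 6 of Ifngr1 were heterozygous. Irf2 differed, with 6 homozygous, 16 heterozygous and 1 with 2 variant alleles, of which 14 were insertions or deletions. Of all 331159 such calls, 36.1% were heterozygous. The 11 calls of Tyk2 had 2 to 11 reads, so each genotype rests on few reads. In Stat2 the 10 intron calls among them had 2 to 7 reads and the 2 downstream calls 2 reads each. Over all genes, 854 coding substitutions heterozygous in the exome had 1 to 4 RNA reads. Of these 13.9% were called homozygous in RNA and 3.40% heterozygous, so homozygous RNA calls at such depth say little about zygosity.

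**Figure D3:**
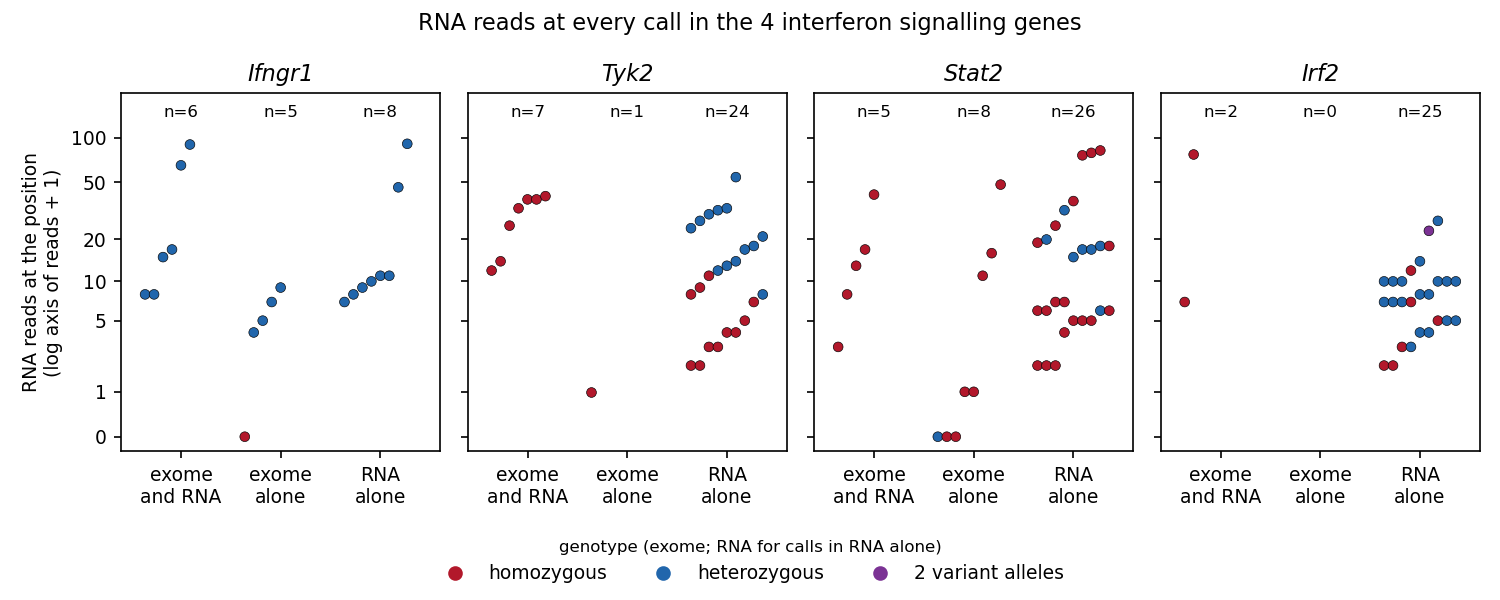
RNA reads at each of the 117 calls, on a log axis of reads plus 1, split by gene and by whether the call was made in exome and RNA, in the exome alone or in RNA alone; red is homozygous, blue heterozygous and purple 2 variant alleles. Colour gives the exome genotype, or the RNA genotype for calls in RNA alone, so C428C of Tyk2, heterozygous in RNA, is red. The blue points of Tyk2 are all in RNA alone and reach 54 reads, and the exome-alone point of Stat2 at 48 reads is p.Asn416dup.

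The genome around each gene was described by the exome calls of other genes within 1 Mb on each side, leaving out the gene itself. Around Ifngr1 42 calls were homozygous and 95 heterozygous, a homozygous share of 30.7% with an exact 95% interval of 23.1% to 39.1%, and none of 8 coding calls was homozygous. The side of lower coordinates had 65 calls, 44.6% of them homozygous, and the other side 72, of which 18.1% were homozygous. Around Stat2 571 calls were homozygous and 13 heterozygous, 97.8% with an interval of 96.2% to 98.8%, and all 106 coding calls were homozygous. Both lie on chromosome 10, where 54.5% of 4704 exome calls, coding and non-coding, were homozygous. Of the coding exome calls of all genes 37.2% were homozygous. The calls of a region share a haplotype and are not replicates, so these intervals cover counting error only and give no test between the 2 flanks.

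Around Irf2 135 calls were homozygous and 7 heterozygous, 95.1% with an interval of 90.1% to 98.0%, on chromosome 8 where 93.2% of 22817 exome calls were homozygous. Nearly all of them lay on the side of higher coordinates, with 137 calls of which 97.1% were homozygous, and the other side had 5 calls, of which 40% were homozygous. Tyk2 sat in a mixed region, where 525 calls were homozygous and 210 heterozygous, 71.4% with an interval of 68.0% to 74.7%. On the side of lower coordinates 98.6% of 278 calls were homozygous, and on the other side 54.1% of 447, the remaining 10 being calls of an overlapping gene. Heterozygous calls on that side lay in genes such as Kri1, with 0 homozygous and 12 heterozygous calls, Pde4a with 9 and 32, Qtrt1 with 7 and 24 and Ap1m2 with 1 and 16. Over 10 Mb on each side the homozygous share was 25.2% around Ifngr1, 63.2% around Tyk2, 97.5% around Stat2 and 93.7% around Irf2.

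**Figure D4:**
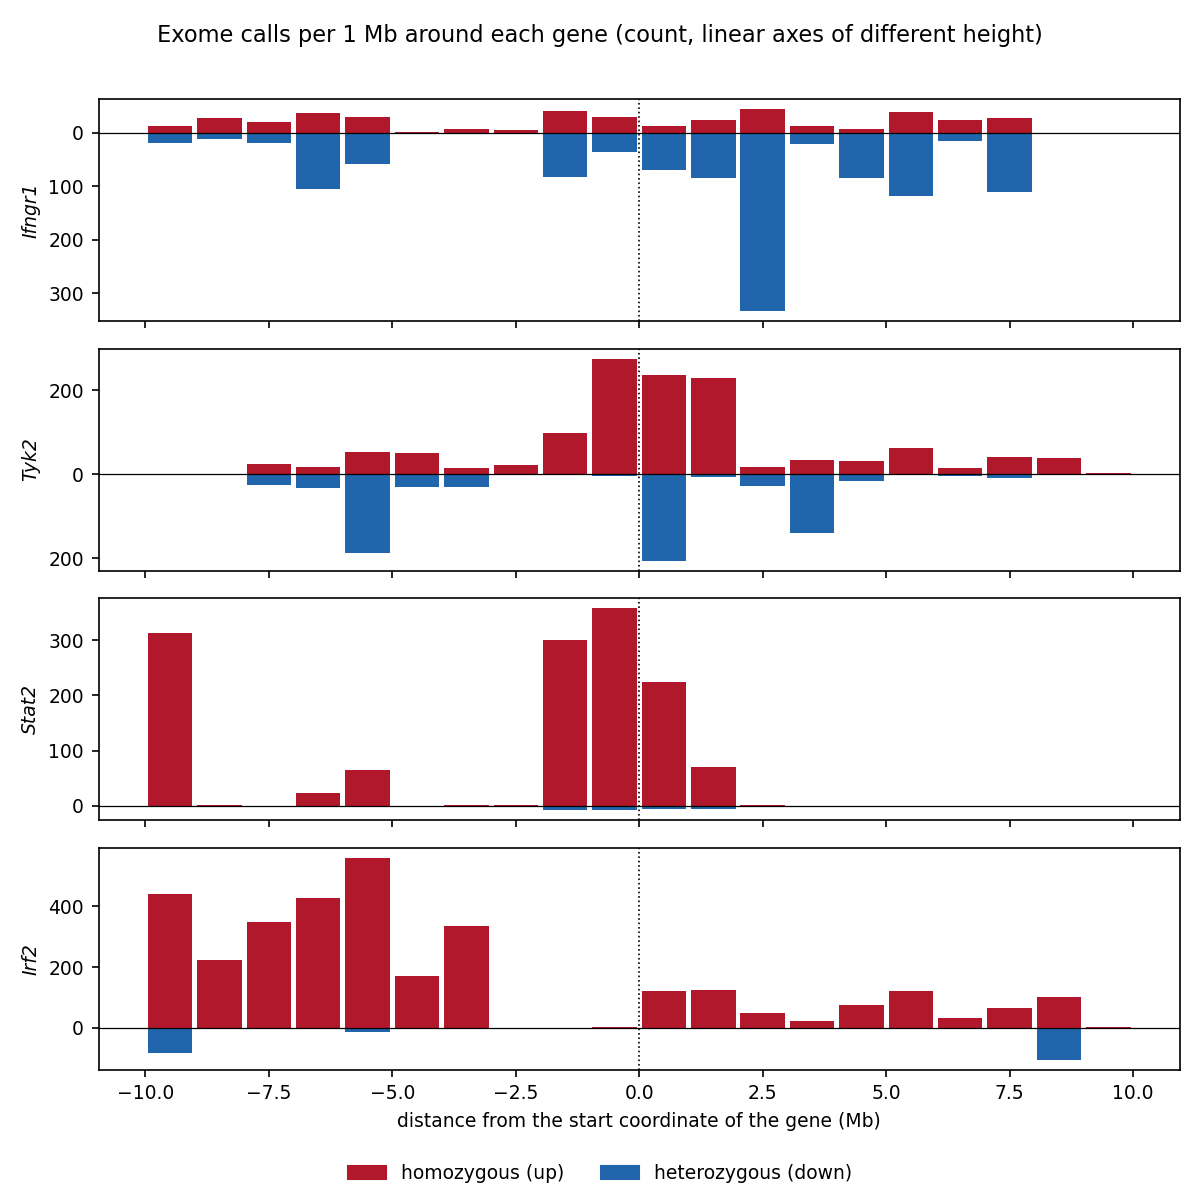
Exome calls per 1 Mb within 10 Mb on each side of each gene, with homozygous calls drawn upward and heterozygous calls downward on linear axes of different height. Heterozygous calls outnumber homozygous ones around Ifngr1 (1173 against 395), and few are seen around Stat2 (35 against 1357) and Irf2 (215 against 3216).

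The next gene with a call was then looked up on each side, beyond the outermost calls of each of the 4 genes. Il22ra2, which encodes a soluble receptor for interleukin 22, follows Ifngr1 and had 7 exome calls, all heterozygous, 1 of them missense. On the other side Olig3 had 3 heterozygous exome calls. Apof, an apolipoprotein gene, and Il23a, an interleukin 23 subunit gene, lie on either side of Stat2 and had 4 homozygous exome calls each. Of the calls that the table names with Apof, 5 lie within the bounds of Stat2, 2 of them exome calls. Next to Irf2, 4930579M01Rik had 1 homozygous exome call. Raver1, beside Tyk2, had 0 exome calls. On the other side 1700084C06Rik overlaps Tyk2 on the opposite strand. Within the bounds of Tyk2 it carries 59 calls of its own, 10 of them in the exome, of which 9 were homozygous and 1 heterozygous. Its 49 calls in RNA alone included 40 homozygous ones. No source used here states the strand of the RNA library, so reads of the 2 genes cannot be told apart.

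The wider pathway was looked at through 32 interferon receptors, kinases, STAT and IRF factors and inhibitors. Of these, 20 had any call, 12 an exome call and 5 a protein-changing exome call, while 15.4% of all 18200 genes with a call had a protein-changing one. As 4 of the 5 were picked for that property, the count says nothing of the pathway. Among the 28 other genes 16 had any call, 8 an exome call and 1 a protein-changing exome call. That gene is Irf2bp1, which encodes a corepressor that binds IRF2, and its S414T at chr7:19005676, in a protein of 584 residues, was homozygous in exome and RNA with 37 reads. Its silent L121L, A407A and Q538Q were homozygous too, with 37 to 47 reads. The partners of the 4 genes at the receptors showed no coding change in the exome. Jak1 and Ifnar1 had 0 exome calls, Ifngr2 had 1 homozygous intron call in the exome and Jak2 had 3 heterozygous exome calls, none of them coding and 2 of them in splice regions. The RNA alone gave 2 splice-site calls in Jak1, 2 in Jak2 and 1 in Ifngr2. Of all 12303 calls at a splice donor or acceptor, 98.8% were seen in RNA alone. Stat3 had 24 exome calls, 16 of them heterozygous, with the silent F683F and I104I as its coding exome calls at 142 and 23 reads. In RNA alone Stat3 had 3 more calls that the table marks as protein-changing or at a splice site, all of them deletions across an exon boundary. Irf1 and Irf9 had no call in either library, and neither did Ifnar2, Ifnlr1, Il10rb, Irf4 to Irf8 and Socs1. The table lists called differences from the reference only, so a gene without a call may match it or may not have been read.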

How the data were processed

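The authors deposited a table of variant calls for A223, with genotypes from exome and RNA reads and the RNA depth as a count of reads per position. BWA and GATK are named in the submitters' processing notes, and their versions, the filters and the genome build are not given in the sources used here. The build was checked with RefSeq promoter windows of GRCm38.p6, where 3044 of 3044 substitutions (100%) had the same base. The table is deposited in 2 identical copies, and 1 was used. Depth was left out at 34 rows that list several depths. The members and lists were chosen with earlier results of these data known. Protein-changing exome calls of the 4 genes are given in full and their other calls by class, of which examples are named. From the pathway list the genes with a protein-changing exome call are named, and beside each member the next gene with a call; Kri1, Pde4a, Qtrt1, Ap1m2 and the receptor partners were named after their values were seen. Some genes of the lists and 1 intron are not reported here. Shares carry exact Clopper-Pearson 95% intervals, which cover counting error only. They treat calls as independent, although the calls of a gene or region share a haplotype. Python 3.11.15, pandas 2.3.3, numpy 2.4.6 and scipy 1.17.1 were used, and counting was tested on simulated tables. Alternatives were the RNA depth minimum (20; 10 or 50 reads), the flank (1; 0.5 or 2 Mb) and the classes of call counted.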

Additional observations from a re-analysis of the deposited data

How the results depend on the processing

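With 1 exome and 1 RNA library, leaving out a replicate was not possible. No paired analysis was possible because there was 1 library of each kind and no test. Of 28 alternatives 19 moved their value by less than its counting interval, or a count by less than 1.5 times. Counting coding and UTR calls only, the homozygous share of Ifngr1 was 0%, against 9.09% over all its exome calls, because its homozygous call lies in the promoter. For Stat2 it was 100% both with coding and UTR calls only and with substitutions only, against 92.3%, because its heterozygous call is an intron deletion. Counting every call between the bounds of Tyk2 gave 17 exome calls, against 8 by gene name, since calls of the overlapping gene enter. The homozygous share of flanks of 0.5 Mb was 21.1% for Ifngr1 and 65.3% for Tyk2, and of 2 Mb 79.2% for Tyk2, against 30.7% and 71.4% at 1 Mb; the cause was not tested. Agreement with the RNA was 100% with at least 50 reads, where 3 calls remain, and 100% for substitutions only, against 90%. Exome depth is not listed, and RNA genotypes at fewer than 10 reads rest on few molecules.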

Other observations

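Calls between genes are named with a neighbouring gene in the table and were not counted above. With Ifngr1 the table names 8 such exome calls, 5 homozygous and 3 heterozygous, and with Irf2 28, all homozygous. All of these had 0 RNA reads. Transitions, exchanges between A and G or between C and T, made up 11 of 14 coding substitutions of the 4 genes (78.6%) and 15520 of 20941 over all genes (74.1%).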
